A study of Mus musculus with 6 samples.

Results

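The ligands and receptors that steer growing axons were examined in adult mouse hippocampus after neonatal ethanol. They are the ephrins and Eph receptors, and the semaphorins with their plexin and neuropilin receptors. The netrins with Dcc and the Unc5 receptors, the netrin-Gs, and the Slits with their Robo receptors also belong to them. A gene was taken when its symbol belongs to these families and a probe set, the group of short probes that reads a gene, carries that symbol alone. This gave 69 of the 19938 genes with a probe set of their own, each read by its brightest probe set. They comprise 8 ephrins, 13 Eph receptors, 20 semaphorins, 11 plexins and neuropilins, 5 netrins and netrin-Gs, 5 Dcc and Unc5 receptors and 7 Slits and Robos. Ephb2 and Ntng2 were not analysed here.

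Male C57BL/6J mice, with littermates divided between the groups, were injected subcutaneously on postnatal days 4 and 7, with 2 injections on each day, and the whole hippocampus was taken on day 70. The ethanol group received 2.5 g/kg of ethanol per injection in 0.15 M NaCl, and the control group received 0.15 M saline. RNA from 3 males of different litters was pooled for each Affymetrix Mouse Gene 1.0 ST array, with 3 arrays per group. Errors and tests therefore rest on pools and not on single animals.

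Axon guidance cues act on the growth cone, the moving tip of an axon, where receptors turn contact with a ligand into growth towards it or collapse away from it. Ephrins are bound to the membrane, so that Eph signalling needs contact between cells, whereas netrins, Slits and class 3 semaphorins are secreted. In the hippocampus these genes lay out the mossy fibres and the layered input from the entorhinal cortex during development, and many stay active in the adult at synapses and dendritic spines.

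Few of these genes differed between the groups past a test. Of the 69 genes, 1 passed an unadjusted p under 0.05 in limma, the netrin receptor Unc5b, and it was lower after ethanol. This is 1.45% of these genes, against 5.22% of all genes tested. By direction, all genes gave 2.41% lower and 2.8% higher, where this set gave 1 gene lower and none higher. Among genes above the level of background described below, it was 1 of 63, against 4.7%. This order depended on the setting, since 9 genes (13%) passed with array weights, against 7.71% of all genes, 6 (8.7%) without saline pool 1, against 6.31%, and 4 (5.8%) without saline pool 2, against 5.03%. No gene of the set passed after Benjamini-Hochberg adjustment over all probe sets (adjusted p of 0.931 or more), as was true of all genes (0%). None differed by over 1.2-fold at the unadjusted threshold, where 0.276% of all genes did. Log2 changes, given throughout as ethanol minus saline, ran from -0.15 for Plxnd1 to 0.23 for Sema3b, with a median of -0.03 over the set and of 0.00 over all genes. The change was below 0 in 43 of 69 genes (62.3%), against 49.9% of all genes, and in 40 of the 63 above that level (63.5%), against 54.6% of all such genes. In a bulk sample, fewer cells of a type and less RNA per cell cannot be told apart.

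The arrays set close limits on most of these genes. For 58 of the 69 (84.1%) the whole 95% confidence interval of the change lay within 1.2-fold in either direction, against 92% of all genes. For 68 it lay within 1.5-fold, and the exception was Sema3b. The median standard error was 0.05 on the log2 scale. The ethanol and saline pools did not overlap in 7 genes (10.1%), against 10.4% of all genes. Ephb6 alone was higher in every ethanol pool (1.45%, against 5.35%), while the 6 genes Efna4, Epha5, Sema4c, Sema7a, Nrp2 and Unc5b were lower in every ethanol pool (8.7%, against 5.09%). With 3 pools in each group an exact permutation test has a smallest possible p of 0.1, so none is given. As a level of background, receptor genes of the olfactory and vomeronasal systems, which serve the nose, were used. Their 95th percentile was 5.37, and the mean was above it in 63 of the 69. Efna4, Epha1, Epha2, Epha8, Sema3g and Robo3 lay at the level of those receptor genes, where a small change would be hard to see.

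**Figure D1:**
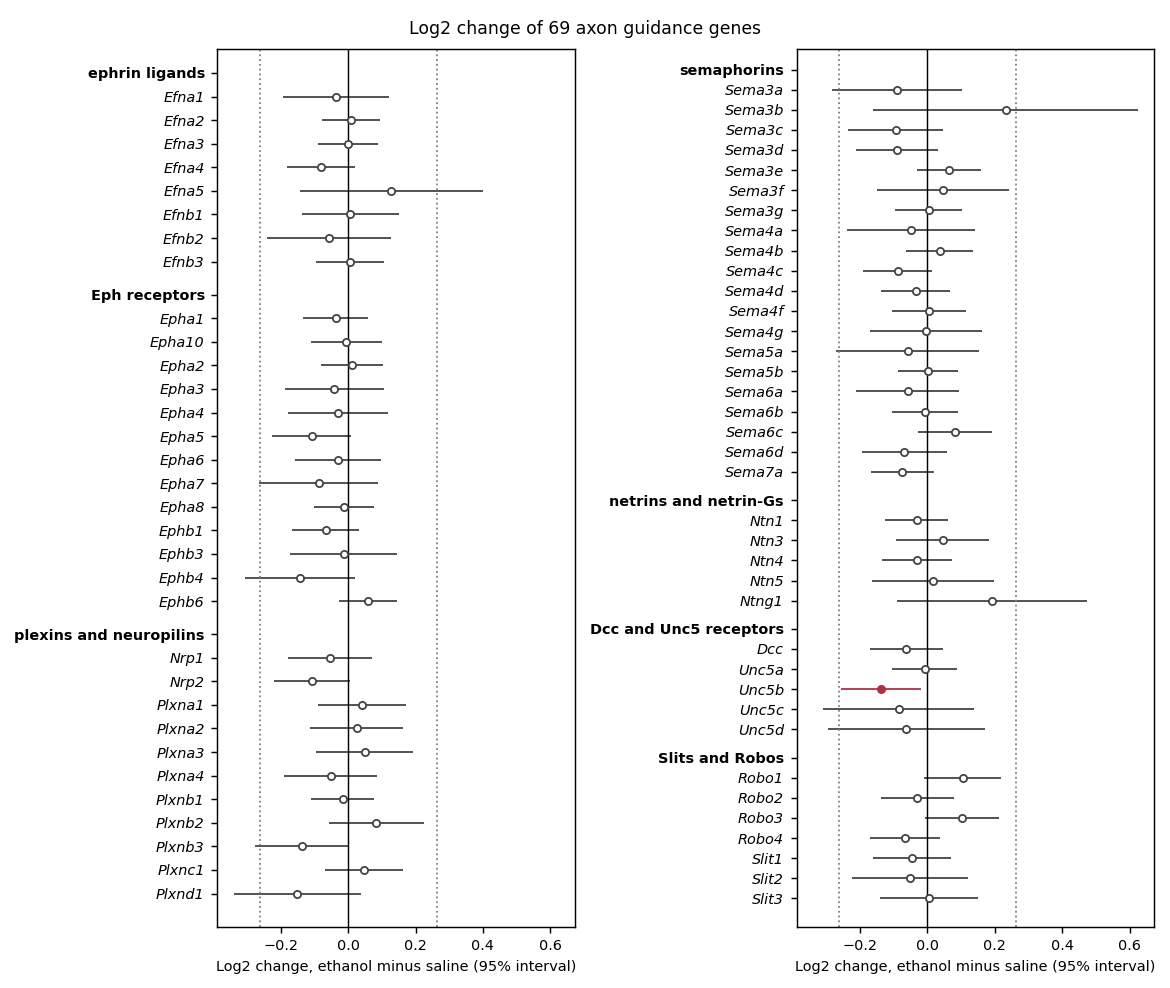
Log2 change (ethanol minus saline) of each of the 69 genes with its 95% confidence interval from limma, grouped by role; dotted lines mark 1.2-fold and the filled red symbol is the gene past an unadjusted p under 0.05. Unc5b is the only filled symbol, at -0.14, and the widest interval belongs to Sema3b.

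The marker genes of the hippocampal fields were present. The mean was above the level of receptor genes for 8 of 8 dentate gyrus markers, 5 of 5 for CA1, 4 of 5 for CA2 and 7 of 7 for CA3. Marker lists of neighbouring tissue varied between pools. All marker lists were chosen with earlier results of these data known. Relative to saline, the mean of 16 thalamus markers was at 0.60 in ethanol pool 1, 0.24 in pool 2 and 0.09 in pool 3, and that of 14 choroid plexus markers at 1.07, -0.27 and 0.64. The mean of 8 habenula markers, of which 5 were above the level of receptor genes, was at 0.35 in saline pool 2 and 0.40 in ethanol pool 2, and between -0.23 and -0.05 in the other pools. These values are given again below, and their part in the values of the guidance genes was not tested.

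Netrin-1 attracts axons through Dcc and repels them through the Unc5 receptors, which can also signal cell death when no ligand is bound. By their brightest probe sets all 5 receptors had a change below 0, as had 62.3% of the set and 49.9% of all genes. Their changes ran from -0.14 for Unc5b to -0.01 for Unc5a, and Unc5b alone passed the unadjusted threshold. Unc5b, which guides both axons and the sprouting tips of blood vessels, was at 8.36, 8.21 and 8.34 on the log2 scale in saline pools 1, 2 and 3. In ethanol pools 1, 2 and 3 it was at 8.20, 8.11 and 8.20. The ethanol pools all lay below the saline pools, by a margin of 0.01 between saline pool 2 and ethanol pool 1. The change was -0.14 ± 0.05 (SE), or 0.91 times the saline level with a 95% interval of 0.838 to 0.987. The call was lost in the methods' t-test (unadjusted p = 0.0665), without saline pool 1 (-0.11), without saline pool 3 (-0.12) and without ethanol pool 2 (-0.11).

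The other receptors of netrin-1 varied at least as much within a group as between groups. Dcc, the attractive receptor, had a change of -0.06 ± 0.05 (SE), and Unc5a of -0.01 ± 0.04. Unc5c was at 9.25, 8.93 and 9.16 in the saline pools and at 9.21, 8.97 and 8.90 in the ethanol pools. Unc5d was at 8.56, 8.20 and 8.38 in saline and at 8.50, 8.25 and 8.19 in ethanol. In both genes the groups overlapped almost fully, with saline pool 2 and ethanol pools 2 and 3 low and the other pools high. Their intervals were correspondingly wide, from 0.806 to 1.102 times the saline level for Unc5c and from 0.815 to 1.13 for Unc5d. A second probe set of Unc5d was at 0.06 ± 0.09, so that the readings of this gene differed in sign.

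Among the netrins and netrin-Gs no gene passed the threshold. Ntn1, the classical netrin, had a change of -0.03 ± 0.04 (SE), Ntn3 of 0.05 ± 0.06, the basement membrane netrin Ntn4 of -0.03 ± 0.05 and Ntn5 of 0.02 ± 0.08. Ntng1, a netrin-G that is anchored to axon membranes and binds an adhesion partner on dendrites, is known for its high expression in thalamic neurons. It was at 9.26, 9.07 and 9.22 in saline pools 1, 2 and 3, and at 9.70, 9.22 and 9.20 in ethanol pools 1, 2 and 3. Ethanol pool 1 stood above all other arrays, while ethanol pools 2 and 3 lay within the saline range. The change was 0.19 ± 0.12 (SE) and did not pass, with an interval from 0.94 to 1.39 times the saline level, and it was 0.03 without ethanol pool 1. From the saline mean, Ntng1 lay at 0.517, 0.040 and 0.021 in ethanol pools 1, 2 and 3, beside 0.60, 0.24 and 0.09 for the mean of the thalamus markers. Of those 16 markers, 10 passed the unadjusted threshold, all higher, where 2.8% of all genes passed as higher. They include Tcf7l2, which the paper reports as higher after ethanol, and the list was chosen with earlier results known. The part of the thalamus markers in the value of Ntng1 was not tested. A second probe set of Ntng1 was also highest in ethanol pool 1, at 6.71, and had a change of 0.08 ± 0.12.

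**Figure D2:**
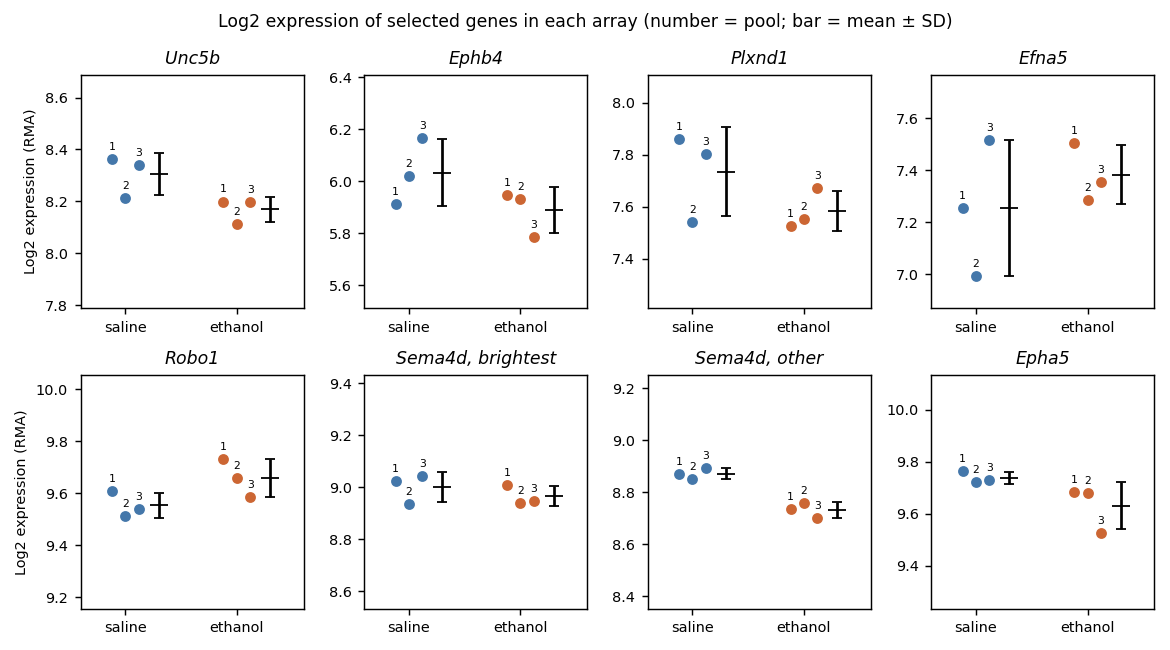
Log2 expression of 7 genes in each array, numbered by pool, with the mean ± SD beside the points; every panel spans 0.9 log2 units around the gene's own mean. The groups do not overlap for Unc5b, Epha5 and the other probe set of Sema4d, whereas a saline pool lies at the far low end for Efna5.

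Semaphorins were the largest family, and none of the 20 passed the unadjusted threshold by its brightest probe set. Their median change was -0.02, with 12 below 0 and 8 above. Secreted class 3 semaphorins repel axons through neuropilin and plexin complexes. Sema3a, the classical collapsing factor that binds Nrp1, was at 6.48, 6.19 and 6.47 in the saline pools and at 6.22, 6.41 and 6.23 in the ethanol pools. The groups overlapped, and the change was -0.09 ± 0.08 (SE). Sema3f, which binds Nrp2 and prunes mossy fibre axons, had a change of 0.05 ± 0.09. Sema3e, which signals through Plxnd1 without a neuropilin, had one of 0.06 ± 0.04. Sema3c (-0.09 ± 0.06) and Sema3d (-0.09 ± 0.05) had changes of the same size below 0, and Sema3d and Sema3a are neighbours in the gene order of the RefSeq table, with no other protein-coding gene between them.

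Sema3b had the largest difference of the set and also the largest spread. It was at 5.46, 5.67 and 5.66 in saline pools 1, 2 and 3, and at 6.27, 5.47 and 5.75 in ethanol pools 1, 2 and 3. Ethanol pool 1 was far above all other arrays, and ethanol pool 2 lay near the bottom of the saline range. The change was 0.23 ± 0.17 (SE), with an interval from 0.894 to 1.54 times the saline level. Without ethanol pool 1 it was 0.01, and without ethanol pool 2 it was 0.41 and passed the unadjusted threshold. From the saline mean the ethanol pools lay at 0.675, -0.130 and 0.151. The choroid plexus markers, in the same order, lay at 1.07, -0.27 and 0.64, and the 12 markers of meninges and fibroblasts at 0.22, -0.09 and 0.15. In the saline pools Sema3b ran from -0.138 to 0.075, the choroid plexus list from -0.17 to 0.18 and the meningeal list from -0.06 to 0.12. Of the 14 choroid plexus markers 3 passed the unadjusted threshold, all higher, where 2.8% of all genes passed as higher. None of the meningeal list passed. The part of these tissues in the Sema3b value was not tested.

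**Figure D3:**
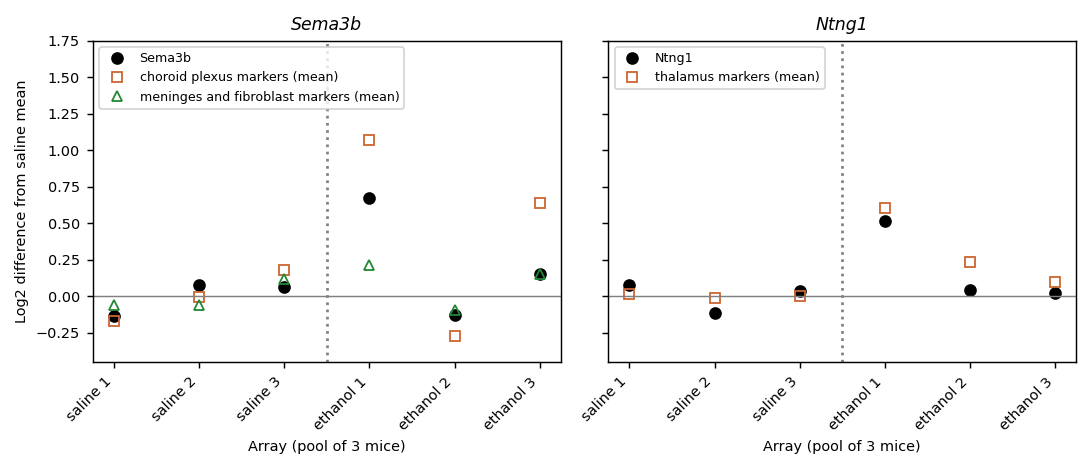
Log2 difference of each array from the mean of the saline arrays, for Sema3b beside choroid plexus and meningeal marker means (left) and for Ntng1 beside thalamus markers (right). Ethanol pool 1 is the highest array for both genes, at 0.675 and 0.517, and for all 3 marker means.

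Membrane-bound semaphorins were close to the saline level. Sema4d, which binds Plxnb1 and is made mainly by oligodendrocytes in the brain, was read by 2 probe sets that disagreed. The brightest had a change of -0.03 ± 0.05 (SE) and overlapping groups. The other was at 8.87, 8.85 and 8.89 in the saline pools and at 8.74, 8.76 and 8.70 in the ethanol pools. Every ethanol pool lay below every saline pool by at least 0.09, with SDs of 0.02 and 0.03 within the groups. Its change was -0.14 ± 0.04, or 0.907 times the saline level with an interval of 0.854 to 0.964, and it passed the unadjusted threshold (adjusted p = 0.931). This probe set was singled out after its values were seen, and it is the only one that passed among the 6 further probe sets of these genes. Of the 6, that of Sema6b repeats the values of the brightest exactly.

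Among the other membrane-bound members, Sema4c, a ligand of Plxnb2, was lower in every ethanol pool (-0.09 ± 0.05, SE). Sema7a, which is anchored by a lipid and binds Plxnc1, was also lower in every ethanol pool (-0.07 ± 0.04). Neither passed the threshold, which Sema4c did with array weights and Sema7a without saline pool 1. Sema5a, which restrains synapse formation in dentate granule cells, was at 10.34, 10.38 and 10.44 in saline pools 1, 2 and 3. It was at 10.48, 10.41 and 10.09 in ethanol pools 1, 2 and 3, so that the ethanol group held both the highest and the lowest array. Its change was -0.06 ± 0.09. The remaining semaphorins with a change above 0 lay between 0.00 for Sema5b and 0.08 for Sema6c.

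None of the 11 plexins and neuropilins passed the threshold. Plxnd1, the receptor of Sema3e, had the most negative change of the whole set. It was at 7.86, 7.54 and 7.80 in saline pools 1, 2 and 3, and at 7.53, 7.55 and 7.67 in ethanol pools 1, 2 and 3. Saline pool 2 lay among the ethanol pools, while the other saline pools lay above them. The change was -0.15 ± 0.08 (SE), or 0.90 times the saline level with an interval of 0.79 to 1.03, and it passed at -0.25 without saline pool 2 and at -0.18 with array weights. Nrp2, the neuropilin of Sema3f, was at 8.68, 8.66 and 8.77 in saline and at 8.63, 8.63 and 8.53 in ethanol. All ethanol pools were lower, but the gap of 0.03 was small against the spread, and the change of -0.11 ± 0.05 did not pass, except with array weights. Nrp1, the neuropilin of Sema3a, had a change of -0.05 ± 0.05. The A-type plexins that pair with neuropilins lay on both sides of 0, at 0.04 for Plxna1, 0.03 for Plxna2, 0.05 for Plxna3 and -0.05 for Plxna4.

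Of the B-type plexins, Plxnb1 and Plxnb2 bind class 4 semaphorins directly. Plxnb1 had a change of -0.02 ± 0.04 (SE) and Plxnb2 of 0.08 ± 0.06. Plxnb3, a plexin with known expression in the oligodendrocyte lineage, was at 7.43, 7.38 and 7.50 in the saline pools and at 7.38, 7.18 and 7.34 in the ethanol pools. Ethanol pool 2 was the lowest array, and the change of -0.14 ± 0.06 did not pass, although it did with the replicate number as a block, with median centring, with quantile normalization, with array weights, without saline pool 2 and without ethanol pool 1. Unc5b, which oligodendrocytes express, had a change of -0.14 ± 0.05. Sema4d, which they also express, had a change of -0.14 ± 0.04 by a second probe set singled out after its values were seen. Plxnb3, Unc5b and Sema4d were put together with their values known and are not a full list of genes known from oligodendrocytes. By its brightest probe set Sema4d had a change of -0.03 ± 0.05 and overlapping groups. Of 13 oligodendrocyte markers 4 passed the unadjusted threshold, all lower, where 2.41% of all genes passed as lower. Of 8 markers of oligodendrocyte precursors none passed, and their median change was -0.02. Relative to saline, the mean of the 13 oligodendrocyte markers was at -0.07, 0.06 and 0.01 in saline pools 1, 2 and 3. It was at -0.07, -0.19 and -0.03 in ethanol pools 1, 2 and 3. From its saline mean Unc5b lay at 0.057, -0.093 and 0.035 in the saline pools. In the ethanol pools it lay at -0.107, -0.193 and -0.110. The second probe set of Sema4d was lowest in ethanol pool 3. The part of oligodendrocytes in these values was not tested. Plxnc1, the receptor of Sema7a, had a change of 0.05 ± 0.05.

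Unc5b, Plxnd1, Ephb4, which marks venous endothelium, and Robo4, an endothelial Robo, are also known from blood vessels. Their changes were -0.14, -0.15, -0.14 and -0.07, in that order, where 62.3% of the set and 49.9% of all genes were below 0. They were put together with their values known and are not a full list of such genes, so their shared sign is not a result about vessels. Of 11 markers of endothelial and mural cells none passed the unadjusted threshold, which 5.22% of all genes did. The mean of these markers was at 0.06, -0.01 and -0.04 in the ethanol pools relative to saline, and the saline pools spanned -0.02 to 0.03. The part of vessel cells in the values of these genes was not tested.

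Ephrins had a median change of 0.00 over 8 genes and none past the threshold, and the median size of their changes was 0.02, against 0.05 over the set. A-type ephrins are held in the membrane by a lipid and mostly bind EphA receptors, whereas B-type ephrins span the membrane and mostly bind EphB receptors. Efna5, which repels hippocampal and cortical axons, had the widest spread among them. It was at 7.25, 6.99 and 7.52 in saline pools 1, 2 and 3, and at 7.51, 7.29 and 7.36 in ethanol pools 1, 2 and 3. The ethanol pools all lay within the saline range, which is wider here than the difference between groups. The change was 0.13 ± 0.12 (SE) and did not pass. It was -0.0025 without saline pool 2, and 0.26 and past the unadjusted threshold without saline pool 3. Efna3 was among the steadiest genes, at 10.55, 10.58 and 10.58 in saline and at 10.53, 10.58 and 10.60 in ethanol, with an interval from 0.94 to 1.06 times the saline level. Efna1, Efna3 and Efna4 lie next to each other in the RefSeq gene order, and their changes were -0.04, 0.00 and -0.08. The B-type Efnb1, Efnb2 and Efnb3 had changes of 0.01, -0.06 and 0.01.

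Eph receptors are tyrosine kinases, and by their brightest probe sets 11 of the 13 had a change below 0. Over the whole set the share below 0 was 62.3%, and over all genes 49.9%. The median change of the Eph receptors was -0.03, and none passed the threshold. Epha5, a receptor of A-type ephrins in hippocampal neurons, was at 9.76, 9.72 and 9.73 in the saline pools and at 9.68, 9.68 and 9.53 in the ethanol pools. Every ethanol pool was below every saline pool, with ethanol pool 3 lowest, and the change was -0.11 ± 0.05 (SE). Epha4, which binds both ephrin classes and limits spines by contact with astrocyte ephrins, was at 11.34, 11.33 and 11.34 in saline. It was at 11.41, 11.36 and 11.15 in ethanol, so that ethanol pools 1 and 2 were above all saline pools and ethanol pool 3 was below them. Epha7 had the same lowest array, with values of 10.76, 10.87 and 10.76 in saline and of 10.80, 10.81 and 10.52 in ethanol. The changes were -0.03 ± 0.07 for Epha4 and -0.09 ± 0.08 for Epha7.

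The B-type receptors lay close to saline apart from Ephb4. Ephb4 was at 5.91, 6.02 and 6.17 in the saline pools and at 5.95, 5.93 and 5.79 in the ethanol pools. Saline pool 1 lay between ethanol pools 3 and 2, so that the groups overlapped, and the change was -0.14 ± 0.07 (SE). It passed the unadjusted threshold at -0.20 without saline pool 1 and at -0.19 with array weights. Ephb1, which takes part in spine formation, had a change of -0.07 ± 0.04 by its brightest probe set. A second probe set of Ephb1, below 5.37, was at 0.02 ± 0.06. Ephb3 had a change of -0.01 ± 0.07. Ephb6, a receptor without kinase activity, was at 8.27, 8.27 and 8.23 in saline and at 8.30, 8.30 and 8.34 in ethanol. All ethanol pools were higher, by 0.06 ± 0.04 in the mean. This did not pass in limma, but Ephb6 was the only gene of the set whose brightest probe set passed in the methods' t-test (unadjusted p = 0.0322), where 5.04% of all genes did. Epha10, which also lacks kinase activity, had a change of -0.01 ± 0.05 by its brightest probe set and of 0.09 ± 0.04 by a second one, whose pools did not overlap. That probe set and the other one of Sema4d also passed the methods' t-test at the unadjusted threshold.

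Slits are secreted repellents, and Robo receptors carry their signal. Slit1, Slit2 and Slit3 had changes of -0.05 ± 0.05, -0.05 ± 0.08 and 0.00 ± 0.06 (SE). Robo1 was at 9.61, 9.51 and 9.54 in saline pools 1, 2 and 3, and at 9.73, 9.66 and 9.58 in ethanol pools 1, 2 and 3. Ethanol pools 1 and 2 were above all saline pools, whereas ethanol pool 3 was below saline pool 1. The change of 0.11 ± 0.05 did not pass, and it did at 0.13 without saline pool 1, at 0.14 without ethanol pool 3 and at 0.12 with array weights. Robo2, the other main Robo of forebrain axons and the neighbour of Robo1 in the gene order, had a change of -0.03 ± 0.05. Robo3, which lets commissural axons cross the midline, had one of 0.10 ± 0.05 with its mean below 5.37, and it passed in the same 3 alternatives as Robo1. Robo4, its neighbour in the gene order, had one of -0.07 ± 0.05.

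**Figure D4:**
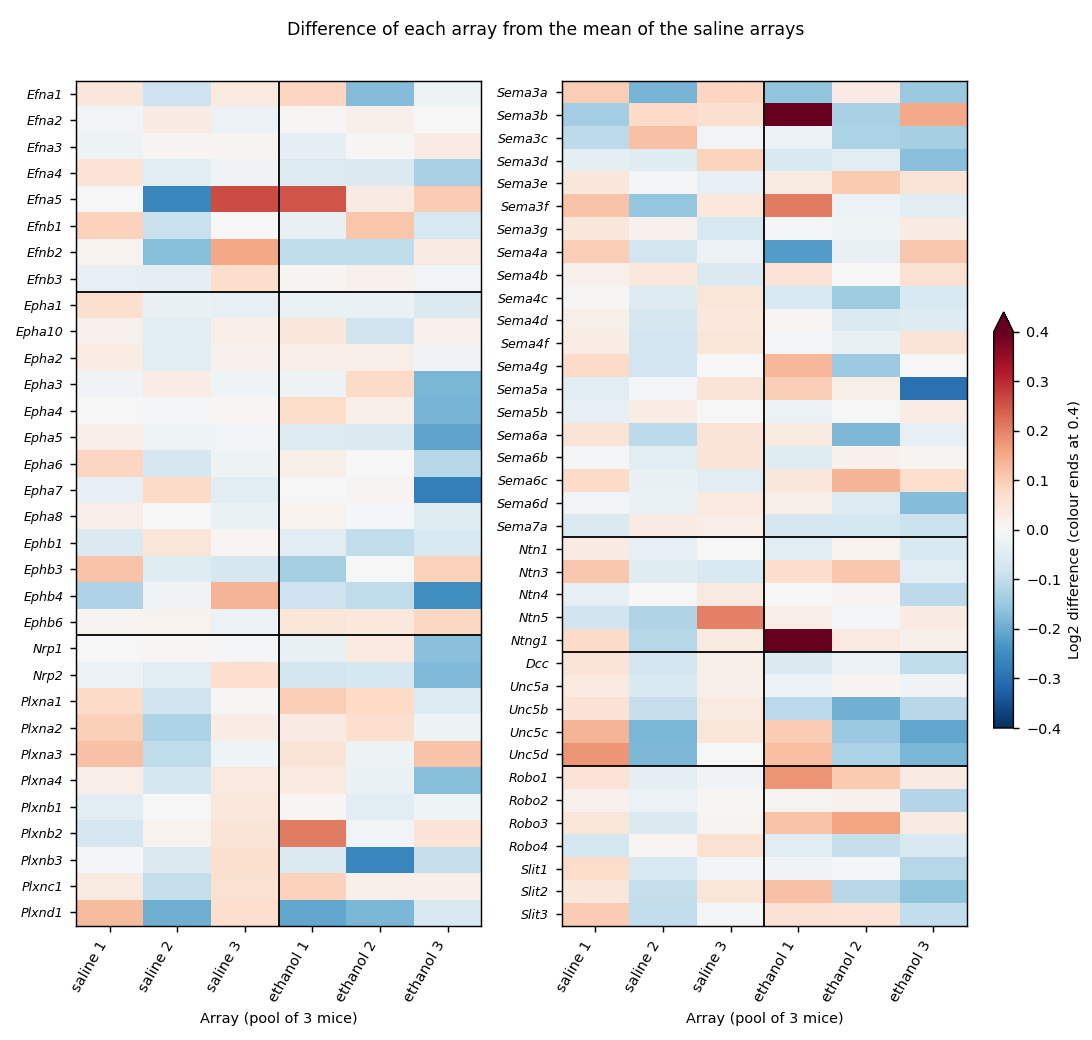
Log2 difference of each array (columns, 3 saline then 3 ethanol pools) from the mean of the saline arrays for the 69 genes (rows, separated by role). Blue in ethanol pool 3 runs through most Eph receptors, and saline pool 2 is blue for most plexins and Unc5 receptors.

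Pools of 1 group differed from each other. The median SD within groups was 0.072 over these genes, beside a median size of change between groups of 0.05, and 41 of 69 lay above the median SD of all genes, 0.06. Ethanol pool 3 held the lowest of the 6 values in 26 of the 69 genes (37.7%), against 18.4% of all genes. Saline pool 2 held it in 18 (26.1%), against 18.6% of all genes. Saline pool 1 held the highest value in 23 (33.3%), against 18.2% of all genes. Among the 63 genes above the level of receptor genes, ethanol pool 3 was lowest in 36.5%, against 20.4% of all such genes. Saline pool 2 was lowest in 25.4% of them, against 14.3%, and saline pool 1 highest in 28.6%, against 15.2%. The pools thus differed within each group, with saline pool 2 and ethanol pool 3 at the low end for these genes. The mean of the habenula markers was at 0.35 in saline pool 2, 0.40 in ethanol pool 2 and -0.05 in ethanol pool 3. Their part in these values was not tested.

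Ethanol pool 3 was the lowest array for 8 of 13 Eph receptors and 3 of 5 Dcc and Unc5 receptors, but for 1 of 8 ephrins. Furthest below the saline mean, it lay at -0.297 for Sema5a, -0.274 for Epha7, -0.246 for Ephb4, -0.212 for Epha5, -0.209 for Unc5c and -0.186 for Epha4. Epha3, Unc5d, Nrp2, Sema6d, Plxna4 and Nrp1 followed, from -0.184 to -0.168. Furthest above the saline mean, it lay at 0.151 for Sema3b. The mean of the 8 dentate markers was also lowest in ethanol pool 3, at -0.15, with 0.08 and -0.03 in ethanol pools 1 and 2. In saline pools 1, 2 and 3 it was at -0.06, 0.05 and 0.01. Among the saline pools it was highest in pool 2. The part of the dentate share of a pool in these values was not tested. The median deviation of the set was -0.05 in ethanol pool 3 and -0.05 in saline pool 2, and between -0.01 and 0.03 in the other 4 pools. Without ethanol pool 3 the median change of the set was -0.0051.

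**Figure D5:**
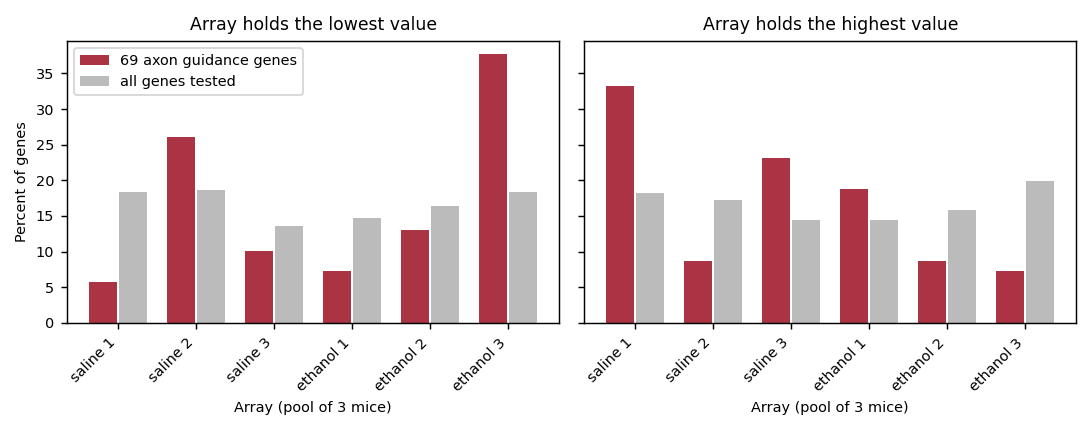
Percent of genes for which each array holds the lowest (left) or the highest (right) of the 6 values, for the 69 axon guidance genes and for all 19938 genes tested. Ethanol pool 3 is lowest in 37.7% of the axon guidance genes and saline pool 1 is highest in 33.3%.

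Changes of known ligands and their receptors stand side by side as follows, for pairs put together after the values were seen. They were -0.03 for Ntn1 with -0.06 for Dcc and -0.14 for Unc5b, and -0.05 for Slit2 with 0.11 for Robo1 and -0.03 for Robo2. Among semaphorins they were -0.09 for Sema3a with -0.05 for Nrp1, 0.06 for Sema3e with -0.15 for Plxnd1, and 0.05 for Sema3f with -0.11 for Nrp2. They were -0.09 for Sema4c with 0.08 for Plxnb2, -0.03 for Sema4d with -0.02 for Plxnb1, and -0.07 for Sema7a with 0.05 for Plxnc1. For Efnb2 and Ephb4 they were -0.06 and -0.14. Of these genes only Unc5b passed the unadjusted threshold, and the differences within pairs were not tested.

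Co-receptors, signalling partners and other guidance cues outside these families were counted in the same fit. Of 107 such genes measured, 4 passed the unadjusted threshold (3.74%, against 5.22% of all genes), 1 as higher and 3 as lower, and none passed after adjustment. Rgma, a ligand of the Dcc relative neogenin, was at a mean of 8.34 in saline and 8.43 in ethanol, a change of 0.10 ± 0.04 (SE). Draxin, a secreted ligand of Dcc, was at 5.13 and 4.99 (-0.14 ± 0.05), below 5.37 in both groups. Grip2, a scaffold that binds B-type ephrins and AMPA receptors, was at 5.43 and 5.26 (-0.17 ± 0.06), with its mean over all arrays also below 5.37. Slitrk2, a synaptic adhesion protein with Slit-like repeats, was at 9.46 and 9.32 (-0.14 ± 0.05). In each of these 4, which were picked by their p, the ethanol and saline pools did not overlap, as in 10.4% of all genes, and the methods' t-test passed Rgma and Draxin but not Slitrk2 and Grip2. Among the 26 genes that act with semaphorins, such as the collapsin response mediators and Mical enzymes, none passed. The median change was 0.00 over these, 0.00 over the 26 of netrins and Slits, -0.03 over the 26 of ephrins and -0.04 over the 29 other cues.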

How the data were processed

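Hippocampal RNA of 18 mice, pooled by 3, went onto 6 arrays (Affymetrix Mouse Gene 1.0 ST). Per the methods, the authors used RMA (background correction, a common distribution for all arrays, one value per probe set) and deposited log2 values. The RMA version and annotation build were not given in the sources used here. Values from 3.51 to 13.9 were taken as deposited, and the number of arrays limits the precision.

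Gene names came from the platform annotation. Its gene identifiers matched a RefSeq table of GRCm38.p6 in 99.6% of cases, and that table served for names and gene order alone. Of 35556 probe sets, the 23410 with a symbol entered limma 3.58.1 (lmFit, eBayes, R 4.3.3), two-sided, unfiltered and without covariates, because the study used an ANOVA of the 2 groups. Its unmoderated form is called the methods' t-test and was an alternative. Intervals are moderated 95% intervals. The fit was tested on simulated data.

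The families and lists were chosen with earlier results of these data known, and lists are described by counts and medians. Values by array are given for each gene with an unadjusted p under 0.05 and for the largest change above receptor level in each role. Genes that did not overlap between groups, had a large spread or have a known partner were added after their values were seen. Other alternatives were a replicate block, median centring, quantile normalization, filters at receptor level and at the median, all probe sets, only those with 1 symbol, averaged probe sets of a gene, an intensity trend, array weights, and leaving out each array. Figures were drawn with matplotlib 3.10.9. The miRNA and methylation arrays were not analysed here.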

Additional observations from a re-analysis of the deposited data

How the results depend on the processing

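The number of genes past the unadjusted threshold depended on single pools and on array weights. It was 1 in the main analysis and 2 with the replicate number as a block, with median centring and with quantile normalization, where Plxnb3 joined Unc5b and both were lower. In the methods' t-test 1 gene passed as higher and 0 as lower. With array weights 9 passed (13%), 3 higher and 6 lower, where 7.71% of all genes passed; saline pool 3 then had a weight of 2.298. Leaving out each array in turn gave from 1 to 6 genes, from 0 to 3 higher and from 0 to 4 lower. These were 6 genes without saline pool 1 (8.7%, against 6.31% of all genes), 4 without saline pool 2 (5.8%, against 5.03%), 2 without saline pool 3 (2.9%, against 3.65%), 3 without ethanol pool 1 (4.35%, against 6.21%), 1 without ethanol pool 2 (1.45%, against 5.77%) and 3 without ethanol pool 3 (4.35%, against 4.47%). Sema3a, Sema3c, Sema6c, Epha5 and Ntn5, which did not pass in the main analysis, each passed in 1 or 2 of these settings. Past 1.2-fold as well were from 0 to 1, the 1 being Sema3b without ethanol pool 2. The change of Efna5 ran from -0.0025 without saline pool 2 to 0.26 without saline pool 3. Partners past the threshold were 4, then 2 with either filter on dim probe sets, 6 with the intensity trend, 6 with array weights, and from 2 to 5 with an array left out. No gene of the set passed after adjustment under any setting, and the median change stayed below 0. Deviations of same-numbered pools from their group means had correlations of -0.049, -0.022 and 0.059. For differently numbered pools these ran from -0.18 to 0.167. With 3 pools per group such values cannot show whether the numbers pair the samples. The cause of the differences between settings was not tested.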
